A study of Mus musculus with 15 samples.

Results

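The NRF2 and glutathione genes described here are 10 of the 53465 genes in the count table of this RNA-seq series: Nfe2l2, Slc7a11, Gclc, Gclm, Gsr, Mgst1, Txnrd1, Prdx1, Srxn1 and Nqo1. They were chosen by name, as genes of 1 pathway, and found through the symbol paired with each Ensembl mouse identifier. Earlier results of these data were known at that choice, so their counts beside the shares of all genes are a description. All 10 passed the filter on low counts and were among the 13938 genes tested. The cells were BMDMs, macrophages derived from mouse bone marrow precursors in culture over 7 days in DMEM with 10% FBS and 20 ng/ml of the growth factor M-CSF. There were 5 groups of 3 libraries, each collected at 24 h: untreated control, IL-4, IL-4+IL-6, IL-13 and IL-6+IL-13. The legends of the study give 10 ng/ml of IL-4 and 40 ng/ml of IL-6 for the sequenced IL-4 and IL-4+IL-6 cultures, and 40 ng/ml of IL-13, alone or with 40 ng/ml of IL-6, for cultures measured by other assays. The methods name mice aged 8 to 12 weeks as marrow donors for such cultures, without restating this for the sequenced RNA. No library received IL-6 alone, so each IL-6 comparison was made on top of IL-4 or IL-13. The study calls the libraries of a treatment group biological replicates. The labels and methods do not say whether these were separate animals or separate cultures. Each p-value rests on the spread between libraries within groups, estimated over all 15 libraries together. It therefore does not follow the spread of the compared groups alone.

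NRF2, the protein of Nfe2l2, is a transcription factor that the adaptor KEAP1 marks for degradation until oxidants or electrophiles modify KEAP1. Stabilised NRF2 pairs with small MAF proteins and binds antioxidant response elements in genes that make and recycle glutathione, reduce thioredoxin and detoxify quinones, while BACH1 competes for such sites. Glutathione is built from glutamate, cysteine and glycine, and macrophages import cystine for it. IL-4 and IL-13 act largely through STAT6 and give macrophages the state called M2, whereas IL-6 acts largely through STAT3.

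Library totals lay between 17001352 and 18918686 counts. The typical spread between replicates (the biological coefficient of variation estimated within a group) was 4.48% in control, 4.54% in IL-4, 7.39% in IL-6+IL-13, 10.9% in IL-13 and 14.8% in IL-4+IL-6, and replicate 2 of IL-4+IL-6 and replicate 1 of IL-13 stood apart from their groups. Socs3, a STAT3 target, was at 1.03 to 2.24 normalized CPM (counts scaled to a common library size) in the 6 libraries given IL-4 or IL-13 alone and at 105.0 to 143.1 in the 6 libraries that also received IL-6. The summed level of 6 macrophage markers was 4620 to 5060 normalized CPM in the libraries of the other groups and 5410 to 5640 in IL-6+IL-13. Its members moved apart: Csf1r and Cd68 stood at group means of 1320 or more in all groups, while Mertk was at 143.0 in control and 8.27 to 17.9 in the cytokine groups, Fcgr1 ran from 101.0 in IL-4 to 479.0 in IL-6+IL-13, and Adgre1 from 844.0 in control to 1450 in IL-6+IL-13. The part of these shifts in the results was not tested. The control libraries also held transcripts used as markers of other cells. The sum of 8 granulocyte markers was 460 to 547 in control and 0.979 to 2.14 in the 12 cytokine libraries. That of 6 stromal markers was 16.1 to 20.2 against at most 0.23. The sum of 6 lymphoid markers was 5.42 to 6.43 against at most 0.901, and that of 5 erythroid markers was 0.729 to 1.16 against at most 0.463. Every granulocyte and stromal marker had counts in control, though Ly6g lay at only 0.0521 to 0.224 normalized CPM there. In IL-4 all 6 stromal and 3 of 8 granulocyte markers were at 0. Which cells made these transcripts was not tested. The part of these markers in the comparisons with control was not tested. In the comparisons that add IL-6, both arms hold only these low sums.

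The levels of different genes were compared per length, as the deposited FPKM (fragments per kilobase of transcript, scaled to library depth). In untreated BMDMs the peroxiredoxin Prdx1 was the highest of the 10 at 347.0 ± 32.4 FPKM (SD, n = 3), followed by Nfe2l2 at 101.5 ± 4.27, the microsomal glutathione transferase Mgst1 at 71.9 ± 4.67 and glutathione reductase Gsr at 58.3 ± 2.29. Srxn1 (42.8 FPKM), Txnrd1 (38.8), Gclm (13.8) and Gclc (11.8) came next. Nqo1 at 1.80 ± 0.21 FPKM and Slc7a11 at 1.71 ± 0.16 were lowest and did not differ beyond the spread of their libraries. The other neighbours in this order did not overlap. The order changed mainly through Gsr, which had rank 4 in control, rank 8 in IL-4 at 7.78 FPKM and rank 7 in IL-13 at 13.2 FPKM. Slc7a11 was the lowest in all 5 groups and ended at 0.0942 FPKM in IL-4+IL-6 and 0.0897 FPKM in IL-6+IL-13.

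The members lie on 7 chromosomes. In the GENCODE M21 annotation of GRCm38, the build named in the submitters' processing notes, Nfe2l2 spans chr2:75675513-75704641, Gsr spans chr8:33652523-33698163, Slc7a11 spans chr3:49892526-50443614 and Prdx1 spans chr4:116685544-116700822. Promoter sequences from RefSeq (GRCm38.p6, 250 bases before to 50 bases after a gene's start) were present for 8 of the 10 genes, with 11 promoters in all, and not for Gclc and Gsr. The letters TGACNNNGC, the core of the antioxidant response element, were searched on both strands and occurred in 6 of these 8 genes and in 6 of the 11 promoters, against 12.4% of 32851 promoters. The AP-1 letters TGANTCA, which can share bases with that core, occurred in Srxn1 and Prdx1 (7.81% of promoters), the STAT3-type letters TTCNNNGAA in Slc7a11, Txnrd1 and Mgst1 (8.3%), and the STAT6-type pattern of TTC and GAA with 4 bases between them in none of the 8 (6.95%). Nqo1 held none of these 4 patterns in this window. The core matches before the start are shown because this element names the pathway. Srxn1 and Slc7a11 have no match to the exact core letters before the start, and looser spellings of the core were not searched. For Srxn1 and Slc7a11 the AP-1 or STAT3-type match nearest the start is shown instead. Other AP-1 and STAT3-type matches, in Srxn1, Prdx1, Txnrd1 and Mgst1, are not printed. Each is written on the strand of its gene, with the matched letters in capitals.
Nfe2l2, core 240 to 232 bases before the start, chr2:75704885-75704913, minus strand: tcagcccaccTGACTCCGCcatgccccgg
Gclm, core on the other strand 134 to 126 bases before the start, chr3:122245413-122245441: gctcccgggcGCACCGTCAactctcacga
Prdx1, core on the other strand 133 to 125 bases before the start, sharing bases with an AP-1 match, chr4:116685456-116685484: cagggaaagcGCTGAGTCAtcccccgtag
Mgst1, core on the other strand 56 to 48 bases before the start, chr6:138140461-138140489: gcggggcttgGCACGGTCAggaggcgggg
Txnrd1, core on the other strand 92 to 84 bases before the start, chr10:82859104-82859132: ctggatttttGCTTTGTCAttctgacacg
Srxn1, AP-1 letters 45 to 39 bases before the start, chr2:152105469-152105495: aaattcacccTGAGTCAgcggccgggc
Slc7a11, STAT3-type letters 183 to 175 bases before the start, chr3:50443778-50443806, minus strand: gtatgctttgTTCTGGGAAatgctttgga
The core of Srxn1 lies after its start and is not printed. A match is a description of letters and not a binding site.

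The first question was how IL-4 or IL-13 alone changed these genes in BMDMs. In IL-4, 7 of the 10 genes fell, 1 rose (Gclc) and 2 did not pass the test (Nqo1 and Prdx1), where 35.9% of all tested genes fell and 32.1% rose at an adjusted p under 0.05. IL-13 gave 7 lower, 1 higher (again Gclc) and 2 that did not pass (again Nqo1 and Prdx1), where 31.1% of all tested genes fell and 29.0% rose. Without the filter on low counts 5 were lower in IL-13, and the calls of Txnrd1 and Srxn1 were lost (adjusted p = 0.0527 and 0.0562). The median log2 fold change of the 10 was -0.63 for IL-4 and -0.46 for IL-13, and over all tested genes it was -0.05 and -0.02. The 2 comparisons share the control libraries. In bulk RNA a lower level can mean fewer cells of a type or less RNA per cell, and these cannot be told apart.

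The second question was what IL-6 added. IL-4+IL-6 had 9 of the 10 genes lower than IL-4 and none higher, and only Gsr did not pass the test, where 18.7% of all tested genes fell and 20.7% rose. IL-6+IL-13 had 10 of 10 lower than IL-13, where 13.5% fell and 12.1% rose. The median log2 fold change of the 10 was -0.43 on IL-4 and -0.58 on IL-13, beside 0.04 and 0.01 over all tested genes. The libraries of the groups compared did not overlap for 9 and for 10 of the 10 genes, against 46.7% and 37.7% of all tested genes. Leaving out single libraries gave 7 to 10 genes lower in IL-6+IL-13 than in IL-13. The count was 7 without replicate 1 of IL-6+IL-13, which took out Nfe2l2, Nqo1 and Srxn1, and 8 without replicate 1 of IL-13, which stood apart and took out Nqo1 and Srxn1. It was also 7 without the filter on low counts, where the same 3 calls were lost (adjusted p = 0.0785, 0.164 and 0.0905). In the test against a fold change of 1.2 it was 5, and that test also took out Nfe2l2, Gclc and Srxn1 with IL-6 on IL-4. Against control, the combined treatments left 9 of 10 genes lower in IL-4+IL-6 (Gclc did not pass) and 10 of 10 lower in IL-6+IL-13, where 37.5% and 32.1% of all tested genes fell. The median log2 fold change against control was then -1.17 and -0.94.

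**Figure D1:**
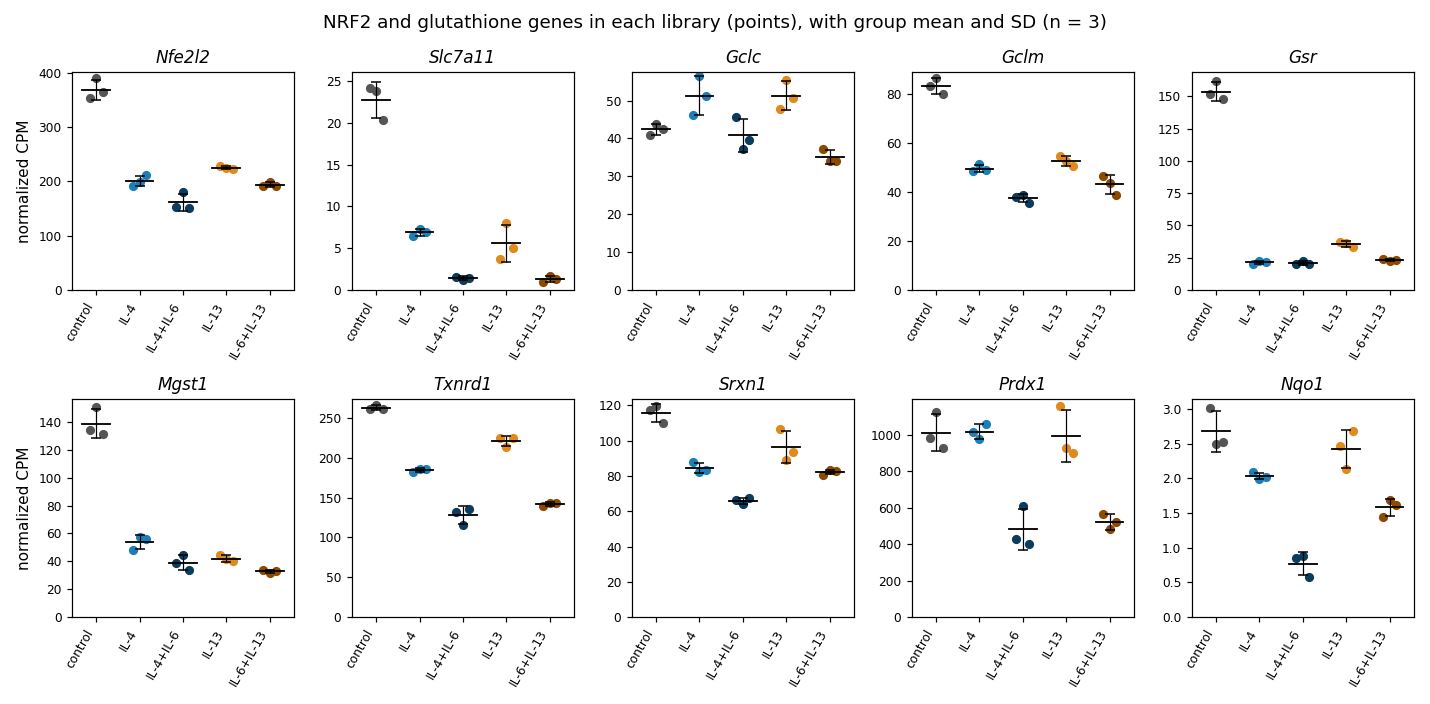
Normalized CPM (vertical axis, starting at 0) of the 10 genes in the 5 groups. Points are single libraries, horizontal lines are group means and error bars are SD (n = 3). Control libraries were highest for 7 of the 10 genes without overlap, and the exceptions are Gclc, Prdx1 and Nqo1.

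Nfe2l2, the gene of the transcription factor itself, was at 353.2, 389.7 and 364.4 normalized CPM in control, at 192.1, 198.7 and 211.0 in IL-4, and at 228.0, 224.3 and 223.1 in IL-13. With IL-6 it was at 152.7, 180.0 and 151.6 on IL-4 and at 191.5, 198.7 and 191.0 on IL-13. The control libraries stood above all others, and each group with IL-6 lay below its partner without IL-6. The log2 fold change was -0.88 (SE 0.07, adjusted p = 6.56e-09) for IL-4 and -0.71 (SE 0.07, adjusted p = 1.24e-07) for IL-13 over control. IL-6 lowered it by a smaller step, -0.31 (SE 0.07, adjusted p = 0.0015) on IL-4 and -0.22 (SE 0.07, adjusted p = 0.0275) on IL-13. The last of these calls was lost without replicate 1 (adjusted p = 0.0607) or replicate 3 (adjusted p = 0.0597) of IL-6+IL-13. These are transcript levels, and the protein, through which KEAP1 acts, was not measured here.

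Cystine supply showed the largest fall of the members with IL-6 and with the combined treatments, while Gsr fell more in IL-4. Slc7a11 encodes the cystine/glutamate antiporter xCT, which brings in cystine for glutathione. It was at 24.2, 23.8 and 20.3 normalized CPM in control, at 6.48, 7.31 and 6.93 in IL-4, and at 3.64, 8.0 and 5.05 in IL-13. In the groups with IL-6 it was at 1.59, 1.12 and 1.44 on IL-4 and at 0.926, 1.63 and 1.28 on IL-13, so the groups formed 3 tiers with no overlap between control, the single cytokines and the combinations. The log2 fold change over control was -1.72 (SE 0.20, adjusted p = 7.01e-07) in IL-4 and -2.04 (SE 0.20, adjusted p = 1.55e-07) in IL-13. IL-6 took off a further -2.31 (SE 0.26, adjusted p = 1.37e-06) on IL-4 and -2.11 (SE 0.27, adjusted p = 1.03e-05) on IL-13. The combined treatments were thus 16.4-fold and 17.7-fold below control. Its lowest library held 16 counts.

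The subunits of glutamate-cysteine ligase, which makes the first bond of glutathione, went different ways. Gclm encodes the modifier subunit and was at 80.1 to 86.7 normalized CPM in control, 48.5 to 51.3 in IL-4, 50.8 to 54.6 in IL-13, 35.5 to 38.9 in IL-4+IL-6 and 38.9 to 46.7 in IL-6+IL-13. It fell by 0.75 on the log2 scale in IL-4 (SE 0.07, adjusted p = 9.18e-08) and by 0.66 in IL-13 (SE 0.07, adjusted p = 5.45e-07), and IL-6 lowered it by a further 0.40 and 0.29. Gclc encodes the catalytic subunit and was at 41.0, 43.9 and 42.5 in control, at 46.2, 56.4 and 51.3 in IL-4, at 47.8, 55.4 and 50.5 in IL-13, at 45.8, 37.3 and 39.5 in IL-4+IL-6, and at 37.1, 33.9 and 34.1 in IL-6+IL-13. Gclc was the only member that rose with a single cytokine, by 0.27 on the log2 scale in IL-4 (SE 0.09, adjusted p = 0.0132) and by 0.27 in IL-13 (SE 0.09, adjusted p = 0.0158). The IL-13 call was lost without control replicate 1 (adjusted p = 0.0503) or IL-13 replicate 2 (adjusted p = 0.0562). IL-6 lowered Gclc by 0.33 (SE 0.09, adjusted p = 0.00803) on IL-4 and by 0.55 (SE 0.09, adjusted p = 0.000183) on IL-13, which put it at -0.05 against control in IL-4+IL-6 (95% confidence interval -0.25 to 0.14, adjusted p = 0.604) and at -0.28 in IL-6+IL-13 (adjusted p = 0.0143). That last call was lost without control replicate 2 or without replicate 2 or 3 of IL-6+IL-13 (adjusted p = 0.0511, 0.0512 and 0.0712), and without the filter on low counts (adjusted p = 0.098).

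The ratio of Gclc to Gclm, taken per length as FPKM and chosen after the values were seen, was 0.821, 0.846 and 0.886 in control and 1.59, 1.84 and 1.75 in IL-4. It was 1.46, 1.75 and 1.66 in IL-13, 2.01, 1.60 and 1.86 in IL-4+IL-6, and 1.33, 1.29 and 1.46 in IL-6+IL-13. Every cytokine library lay above every control library. The ratio was not tested.

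Glutathione recycling showed the steepest fall of the members in IL-4, and in IL-13 its fall was close to that of Slc7a11. Gsr, glutathione reductase, uses NADPH to turn oxidised glutathione back to its reduced form. It was at 151.6, 161.9 and 147.8 normalized CPM in control, at 20.1, 22.2 and 21.3 in IL-4, and at 37.1, 36.3 and 32.9 in IL-13. It was 7.26-fold lower in IL-4 (log2 -2.86, SE 0.08, adjusted p = 1.04e-14) and 4.34-fold lower in IL-13 (log2 -2.12, SE 0.07, adjusted p = 3.36e-13). With IL-6 it was at 20.1, 22.2 and 19.8 on IL-4 and at 23.8, 22.6 and 22.9 on IL-13. The 2 groups with IL-4 therefore overlapped, with a log2 difference of -0.03 (95% confidence interval -0.20 to 0.13, adjusted p = 0.774), while IL-6 lowered Gsr on IL-13 by 0.62 (SE 0.07, adjusted p = 5.81e-06).

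Mgst1, a membrane-bound enzyme that joins glutathione to electrophiles and reduces lipid peroxides, was at 131.6 to 150.4 normalized CPM in control, 47.8 to 57.2 in IL-4, 39.9 to 44.5 in IL-13, 33.8 to 44.7 in IL-4+IL-6 and 31.5 to 34.1 in IL-6+IL-13. It fell by 1.37 on the log2 scale in IL-4 (SE 0.10, adjusted p = 1.32e-09) and by 1.72 in IL-13 (SE 0.10, adjusted p = 1.22e-10). IL-6 lowered it by 0.46 on IL-4 (SE 0.10, adjusted p = 0.00107) and by 0.36 on IL-13 (SE 0.10, adjusted p = 0.0118). Its steps after IL-6 were thus small beside the first fall.

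The thioredoxin arm reduces protein disulfides and peroxides in parallel with glutathione. Txnrd1, the cytosolic thioredoxin reductase, was at 261.5 to 266.2 normalized CPM in control, 181.8 to 186.5 in IL-4, 213.2 to 225.0 in IL-13, 115.3 to 136.2 in IL-4+IL-6 and 139.4 to 143.3 in IL-6+IL-13. It fell by 0.51 on the log2 scale in IL-4 and by 0.25 in IL-13 (adjusted p = 1.4e-06 and 0.002), and IL-6 lowered it by 0.53 on IL-4 and by 0.64 on IL-13 (adjusted p = 2.06e-06 and 3.84e-07). Its values with IL-6 were thus as large as or larger than those over control. Srxn1, sulfiredoxin, restores peroxiredoxins that have been oxidised too far, and was at 109.9 to 119.7 in control, 82.4 to 87.7 in IL-4, 89.2 to 106.5 in IL-13, 64.3 to 67.4 in IL-4+IL-6 and 80.8 to 83.2 in IL-6+IL-13. Its log2 fold changes were -0.45 and -0.26 over control and -0.36 and -0.23 with IL-6, each past the test (adjusted p = 1.72e-05, 0.00297, 0.00044 and 0.0194). The last of these was lost without IL-13 replicate 1 (log2 -0.16, adjusted p = 0.0944) or IL-6+IL-13 replicate 1 (adjusted p = 0.0671), and in a fit of the compared groups alone (adjusted p = 0.0557).

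Prdx1, an abundant peroxiredoxin that reduces hydrogen peroxide with electrons from thioredoxin, changed with IL-6 and not detectably with IL-4 or IL-13. It was at 979.8, 1127 and 928.6 normalized CPM in control, at 1013, 977.8 and 1059 in IL-4, and at 1156, 925.3 and 899.1 in IL-13. In libraries with IL-6 it was at 428.1, 610.2 and 402.2 on IL-4 and at 566.6, 481.1 and 519.7 on IL-13. Every library with IL-6 lay below every library without it. The log2 difference from control was 0.01 in IL-4 (95% confidence interval -0.27 to 0.28, adjusted p = 0.966) and -0.03 in IL-13 (95% confidence interval -0.30 to 0.25, adjusted p = 0.874), and IL-6 gave -1.08 on IL-4 (SE 0.13, adjusted p = 3.5e-06) and -0.93 on IL-13 (SE 0.13, adjusted p = 3.55e-05). Prdx1 has close processed copies in the genome, and how the deposited counts treated reads that match several places is not given in the sources used here, so its level is uncertain.

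Nqo1, a quinone reductase widely used as a readout of NRF2 activity, was scarce. It was at 3.02, 2.49 and 2.52 normalized CPM in control, at 2.09, 1.99 and 2.02 in IL-4, and at 2.46, 2.14 and 2.68 in IL-13. With IL-6 it was at 0.851, 0.884 and 0.576 on IL-4, the lowest group, and at 1.45, 1.68 and 1.61 on IL-13. Neither single cytokine passed the test against control (log2 -0.40, 95% confidence interval -0.81 to 0.01, adjusted p = 0.0789 in IL-4, and log2 -0.14, 95% confidence interval -0.54 to 0.26, adjusted p = 0.537 in IL-13). IL-6 lowered it by 1.39 on IL-4 (SE 0.23, adjusted p = 0.000109) and by 0.62 on IL-13 (SE 0.20, adjusted p = 0.0322). The reads behind these values were few, 10 to 15 counts a library in IL-4+IL-6 and 25 to 31 in IL-6+IL-13. The call on IL-13 held in 13 of the 23 alternative analyses. It was lost without replicate 1 or 3 of IL-13 (adjusted p = 0.0662 and 0.115), without replicate 1, 2 or 3 of IL-6+IL-13 (adjusted p = 0.101, 0.0535 and 0.0638) and with the replicate number as a block (adjusted p = 0.0522). It was also lost with DESeq2 (adjusted p = 0.0635), in a fit of the compared groups alone (adjusted p = 0.0686), without the filter on low counts (adjusted p = 0.164) and in the test against a fold change of 1.2 (adjusted p = 0.115).

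**Figure D2:**
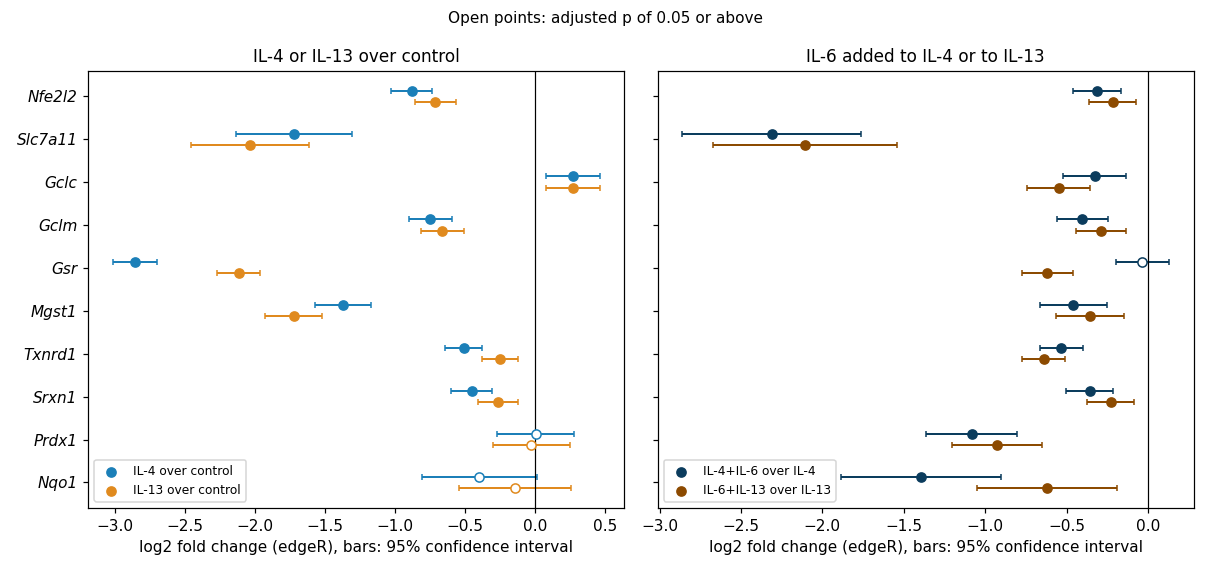
Log2 fold changes of the 10 genes (horizontal axis) for IL-4 and IL-13 over control (left) and for IL-6 added to either (right). Points are edgeR estimates, bars are 95% confidence intervals, and open points have an adjusted p of 0.05 or above. Slc7a11 moved strongly on both sides, Gsr and Mgst1 mainly on the left, and Prdx1 and Nqo1 mainly on the right.

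IL-4 and IL-13 were also compared with each other, at doses that may differ. Gsr was lower in IL-4 than in IL-13 by 0.74 on the log2 scale (SE 0.08, adjusted p = 2.51e-06) and Txnrd1 by 0.26 (SE 0.06, adjusted p = 0.00938), and Mgst1 was higher by 0.35 (SE 0.10, adjusted p = 0.0227), where 7.61% of all tested genes were lower and 5.16% higher. The other 7 genes did not pass the test. The Txnrd1 call was lost without replicate 1 of IL-4 or replicate 3 of IL-13 (adjusted p = 0.0561 and 0.0521), and the Mgst1 call without replicate 2 or 3 of IL-4 or replicate 2 or 3 of IL-13 (adjusted p = 0.0935, 0.083, 0.0745 and 0.103). Slc7a11 differed by 0.32 (95% confidence interval -0.13 to 0.77, adjusted p = 0.36), and passed the test without replicate 2 of IL-13, at 0.66 (adjusted p = 0.0362). Nfe2l2 was lower in IL-4, by 0.16 (adjusted p = 0.0346), without replicate 2 of IL-4+IL-6, which enters this comparison only as part of the fit of all 15 libraries. In the presence of IL-6, 4 genes were lower with IL-4 than with IL-13, where 15.5% of all tested genes were: Nqo1 by 1.03 (SE 0.24, adjusted p = 0.00336), Srxn1 by 0.32 (SE 0.07, adjusted p = 0.00189), Nfe2l2 by 0.26 (SE 0.07, adjusted p = 0.00786) and Gclm by 0.20 (SE 0.07, adjusted p = 0.0481). The Gclm call held in 11 of 23 alternative analyses. Without replicate 2 of IL-4+IL-6, which stood apart, Prdx1 was also lower, by 0.33 (adjusted p = 0.0176), and Gclc was higher, by 0.29 (adjusted p = 0.0263). Without replicate 3 of IL-4+IL-6, Txnrd1 was lower by 0.21 (adjusted p = 0.0216) and Mgst1 higher by 0.33 (adjusted p = 0.0132).

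The test of the difference between the 2 IL-6 effects, IL-6 on IL-4 minus IL-6 on IL-13, called 1 of the 10 genes, where 7.64% of all tested genes were called. This was Gsr, at 0.58 (SE 0.11, adjusted p = 0.0019), since IL-6 lowered it on IL-13 but left it near its IL-4 level on IL-4. The call held in all 23 alternative analyses. Nqo1 had a larger value, -0.78 (95% confidence interval -1.43 to -0.12), with a wider interval, and did not pass after adjustment (adjusted p = 0.173). For the other 8 genes the difference ran from -0.21 to 0.22 on the log2 scale with adjusted p of 0.412 or more, and the widest 95% confidence interval, that of Slc7a11, reached from -1.04 to 0.63.

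**Figure D3:**
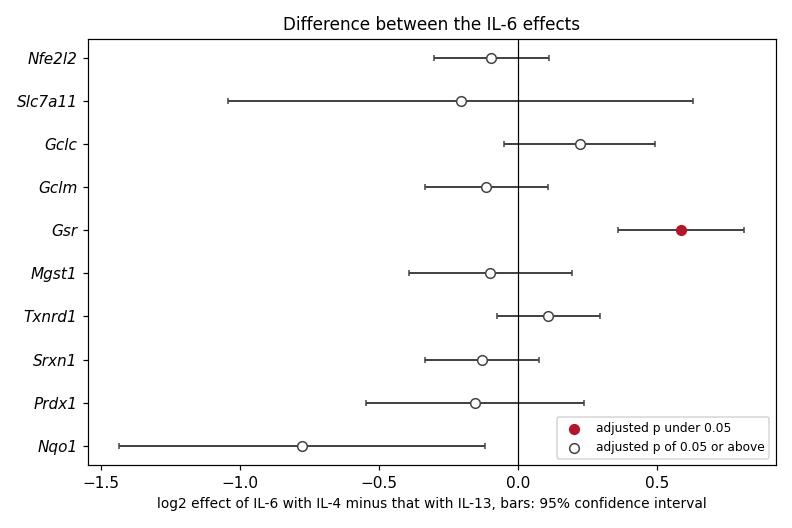
Difference between the log2 effect of IL-6 on IL-4 and that on IL-13 (horizontal axis) for each of the 10 genes. Points are edgeR estimates and bars are 95% confidence intervals. Gsr, the filled point at 0.58, is the gene that passed the test.

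Across the 5 groups, the pattern of Nfe2l2 was nearest that of Gclm among the members, with a root mean square difference of 0.05 log2 units between their centred group means, and 17 tested genes outside the members lay nearer to Nfe2l2 than Gclm did. The 2 nearest genes of all were Galns and Foxk1 (0.04 for both). The nearest genes to Gclm were Kiz and Mtmr14 (0.03 for both), to Txnrd1 S100a11 and Aldh9a1 (0.04 and 0.05), to Srxn1 Arid1b and 1110002L01Rik (0.03 for both), to Gclc Ccdc34 and Zbtb12 (0.03 and 0.04), and to Nqo1 Aldh5a1 and Agmo (0.05 for both). Prdx1 was nearest Mmp8 and 9430037G07Rik (0.05 and 0.06), Gsr nearest Susd1 and Gm45838 (0.08 and 0.11), and Slc7a11 nearest Siglecf and Ramp1 (0.18 and 0.19). Slc7a11 was the member farthest from every other, at 0.89 from its nearest, Gsr. These are descriptions over 5 group means, and the pair of nearest genes changed with the prior count for 7 of the 10 members.

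Another 80 genes of the pathway were followed in 4 lists, of which 75 were tested. Of the 22 further NRF2 target enzymes (21 tested), 11 were lower and 3 higher in IL-4, 9 and 5 in IL-13, 13 and 5 with IL-6 on IL-4, and 10 and 3 with IL-6 on IL-13. Of all tested genes, 35.9%, 31.1%, 18.7% and 13.5% were lower and 32.1%, 29.0%, 20.7% and 12.1% higher in these comparisons. The median log2 fold change of the list was -0.30 in IL-4, -0.096 in IL-13 and -0.33 in both IL-6 comparisons. The enzymes that make NADPH in the pentose phosphate route, which supplies Gsr and Txnrd1, and a neighbour of theirs were among those that fell in all 4 comparisons: G6pdx fell by 0.73, 0.61, 0.66 and 0.61, Taldo1 by 0.52, 0.38, 0.64 and 0.60, and Pgd by 0.56, 0.53, 0.33 and 0.33, each with an adjusted p of 0.00192 or less. These 3 were named after their values were seen, Taldo1 acts in the same route without making NADPH itself, and Tkt, also of this route, rose over control (0.34 and 0.16). Osgin1, an oxidative stress-induced growth inhibitor, fell by 1.26 and 1.14 over control and by a further 1.40 and 1.14 with IL-6. Ephx1, microsomal epoxide hydrolase, rose by 1.48 in IL-4 and 0.90 in IL-13 and fell by 1.38 and 0.80 with IL-6. Akr1b8, an aldo-keto reductase, rose by 1.04 in IL-13 (SE 0.11, adjusted p = 2.25e-07). Its libraries were also higher in IL-4, at 38.1 to 43.4 normalized CPM against 24.7 to 28.7 in control.

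Hmox1, heme oxygenase 1, went against the members when IL-6 was added. It was at 673.4, 713.5 and 686.6 normalized CPM in control, at 548.4, 541.3 and 592.1 in IL-4, and at 814.5, 713.0 and 697.2 in IL-13. In the groups with IL-6 it was at 2017, 2171 and 1748 on IL-4 and at 1778, 1486 and 1685 on IL-13, above every library without IL-6. The rise was 1.82 on the log2 scale on IL-4 (SE 0.09, adjusted p = 2.51e-11) and 1.15 on IL-13 (SE 0.09, adjusted p = 1.51e-08). Cbr3, a carbonyl reductase, also rose with IL-6 on IL-4, by 1.22 (SE 0.17, adjusted p = 1.37e-05), and its value on IL-13 was 0.41 (adjusted p = 0.0994).

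Of the 10 NRF2 regulators, 1 was higher and 3 lower in IL-4, 2 and 2 in IL-13, 5 and 1 with IL-6 on IL-4, and 3 and 1 with IL-6 on IL-13, beside the same shares of all tested genes. Their median log2 fold change was -0.06, 0.02, 0.255 and 0.14. Bach1, the repressor that competes for antioxidant response elements, was at 163.6, 155.5 and 154.2 normalized CPM in control, at 71.0, 69.9 and 72.3 in IL-4, and at 69.7, 91.3 and 81.0 in IL-13. With IL-6 it was at 154.0, 128.6 and 170.7 on IL-4 and at 116.4, 138.4 and 121.1 on IL-13. It therefore fell with the single cytokines (log2 -1.15 and -0.97, SE 0.10 for both) and rose with IL-6 (log2 1.09 and 0.64, adjusted p = 1.64e-07 and 0.000137). Keap1, the sensor that holds NRF2 in check, lay between 42.8 and 53.3 normalized CPM in all 15 libraries and did not pass the test in any of these 4 comparisons (adjusted p of 0.145 to 0.988). Sqstm1, the autophagy receptor p62 that can draw KEAP1 away from NRF2, fell in all 4, by 0.94, 0.79, 0.67 and 0.58 (adjusted p of 1.33e-05 or less). Bach1, Keap1 and Sqstm1 were picked from their list after the values were seen.

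**Figure D4:**
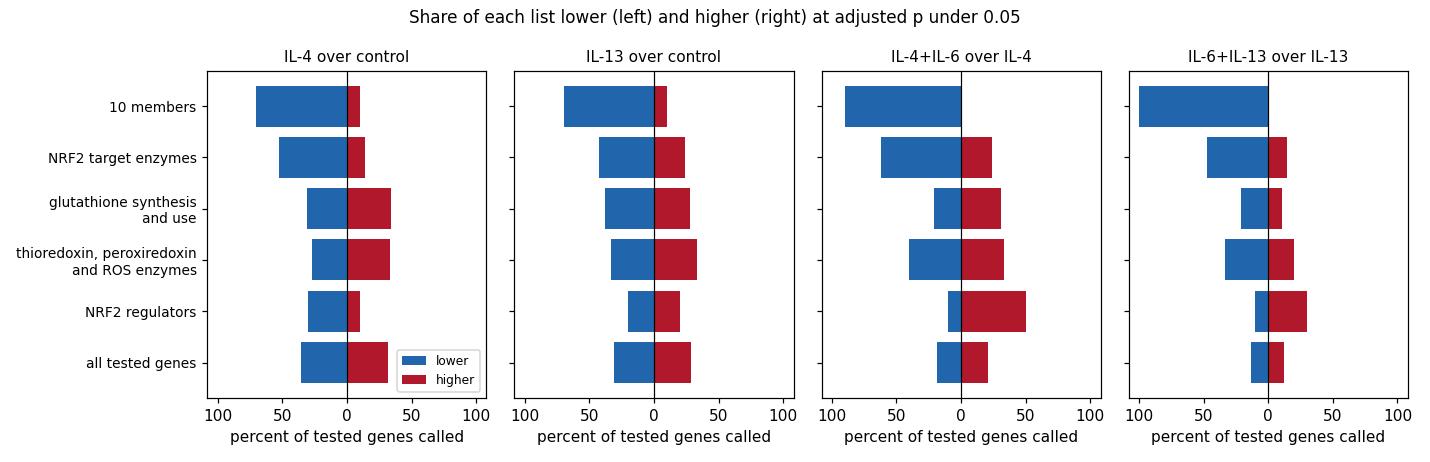
Share of tested genes called lower (left, blue) and higher (right, red) at an adjusted p under 0.05, in percent, for the 10 members, 4 pathway lists and all tested genes in 4 comparisons. With IL-6 added, the members' bars reach 9 and 10 of 10 lower, and the NRF2 regulators have more genes higher than lower.

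Genes of glutathione synthesis and use (29 of 32 tested) were called in both directions against control, 10 higher and 9 lower in IL-4 and 8 higher and 11 lower in IL-13, where 32.1% and 29.0% of all tested genes were higher and 35.9% and 31.1% lower, so these counts lie near the shares over all genes. Chac1, which breaks glutathione down inside the cell, rose from 0.365, 0.443 and 0.393 normalized CPM in control to 5.30, 4.59 and 5.62 in IL-4 and 3.75, 3.27 and 3.56 in IL-13, a log2 change of 3.67 (SE 0.26) and 3.12 (SE 0.28). Glrx, a glutaredoxin that takes glutathione off proteins, rose by 1.501 and 1.56 (SE 0.09 for both), and by a further 1.24 with IL-6 on IL-13 (SE 0.09, adjusted p = 1.37e-08). Glrx was also higher with IL-6 on IL-4, at 236.1 to 300.5 normalized CPM against 152.8 to 161.4 in IL-4. Gpx3, the secreted glutathione peroxidase, fell from 168.0, 180.1 and 176.7 normalized CPM to 11.6, 12.5 and 11.4 in IL-4 and to 9.75, 10.6 and 8.14 in IL-13 (log2 -3.89 and -4.21). Gsta3 and Mgst2, glutathione transferases of low level, had log2 fold changes of -3.29 (SE 0.43) and -3.16 (SE 0.28) in IL-4, and Gsta3 had -3.003 (SE 0.41) in IL-13. Mgst2 was also lower in IL-13, at 1.23 to 1.80 normalized CPM against 6.62 to 8.39 in control. The control libraries, from which these changes are measured, are the ones that held granulocyte markers, and the part of those markers was not tested.

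With IL-6, 9 of the 29 were higher and 6 lower on IL-4, where 20.7% of all tested genes were higher and 18.7% lower, and 3 were higher and 6 lower on IL-13, where 12.1% were higher and 13.5% lower. Mgst3, another membrane-bound transferase, fell by 1.33 on IL-4 (SE 0.13, adjusted p = 1.68e-07) and by 1.17 on IL-13 (SE 0.12, adjusted p = 1.07e-06), after a rise of 0.58 and 0.93 over control. Mgst2 was lower with IL-6 on IL-13 by 0.99 (SE 0.34, adjusted p = 0.0381), a call that was lost with the replicate number as a block (adjusted p = 0.0516), in a fit of the compared groups alone (adjusted p = 0.0663) and when any of 5 libraries was left out (control replicate 2, IL-13 replicate 2 or 3, IL-6+IL-13 replicate 1 or 2, adjusted p of 0.0502 to 0.158). Ggt5, a cell-surface enzyme that cleaves glutathione conjugates, rose with IL-6 by 2.57 on IL-4 (SE 0.51, adjusted p = 0.000539), a value that rests on 2 to 4 counts a library in IL-4 and 15 to 20 in IL-4+IL-6. In IL-13 it had 5 counts over the 3 libraries, so its IL-6 response there is a ratio of 29 to 5 counts, 6.03-fold higher (exact 95% interval 2.31 to 20.0, counting error only), and its fall from control one of 69 to 5 counts, 14.0-fold (5.72 to 44.5). Slc3a2, the heavy chain that pairs with Slc7a11 in the xCT transporter and with other carriers, rose in all 4 comparisons, by 0.83 and 0.76 over control and by 0.32 and 0.32 with IL-6 (adjusted p of 0.00447 or less). It was named after its values were seen. Both of its calls with IL-6 were lost in the test against a fold change of 1.2 (adjusted p = 0.277 on IL-4 and 0.354 on IL-13).

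Of the thioredoxin, peroxiredoxin and ROS enzymes (15 of 16 tested), 5 were higher and 4 lower in IL-4, 5 and 5 in IL-13, 5 and 6 with IL-6 on IL-4, and 3 and 5 with IL-6 on IL-13. Of all tested genes, 32.1%, 29.0%, 20.7% and 12.1% were higher and 35.9%, 31.1%, 18.7% and 13.5% lower. Catalase, Cat, was the one named from this list after its values were seen. It fell in all 4 comparisons, by 1.01, 0.80, 0.75 and 0.71 (adjusted p of 6.74e-08 or less).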

How the data were processed

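RNA-seq libraries of mouse BMDMs were analysed from the gene counts and FPKM that the authors deposited, raw counts in 1 matrix of 15 libraries and FPKM in 1 list per library. The submitters' processing notes name CASAVA, Bowtie2 2.2.3, HISAT2 2.1.0, TopHat2, DESeq2 and the build GRCm38 without saying which step used each. The counting tool and its use of strand are not given in the sources used here. The 10 members and all gene lists were chosen with earlier results of these data known. Library totals are given with the results, and every member had at least 10 counts in each library.

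The deposited counts were tested with edgeR 4.0.16 (R 4.3.3): genes were kept by filterByExpr with a minimum count of 10, scaled by TMM, and tested by the quasi-likelihood F test in 1 fit of all 15 libraries, with Benjamini-Hochberg adjustment over 13938 genes and calls at an adjusted p under 0.05. The SE was taken from the fold change and its F value. Normalized CPM are counts scaled by the TMM library size. The deposited FPKM were used only to set genes side by side. The script was tested on simulated data. Pathway genes were named by a rule: the 3 called genes with the largest rise and the 3 with the largest fall in each of the 4 comparisons over control or with IL-6. Others are said to be named after their values were seen. Patterns were compared by the root mean square difference of centred group means of log2 CPM (prior count 2). The genes nearest Mgst1 and the strain of the marrow donors are not reported here. Alternatives were DESeq2 1.42.0, RLE and upper-quartile scaling, no filter and a stricter one (1 CPM in 3 libraries), a test against a fold change of 1.2, a fit of the compared groups alone, the replicate number as a block, FPKM rescaled to TPM, and leaving out each library.

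Overlapping genes had few counts beside the members' (at most 57, for Gm38560 over Txnrd1, with 1956 or more for Txnrd1).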

Additional observations from a re-analysis of the deposited data

Results flagged for a closer look

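Gsr was picked out because the effect of IL-6 on it differed between the IL-4 and the IL-13 background by the test of that difference, 0.58 on the log2 scale (edgeR, SE 0.11, adjusted p = 0.0019). Its libraries with IL-4 and IL-4+IL-6 overlapped, and all 3 libraries of IL-6+IL-13 were below the 3 of IL-13.

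The same test called 6 of the 75 tested genes of the pathway lists, a share near the 7.64% of all tested genes. The IL-6 effect was more positive on IL-4 than on IL-13 for Hmox1, by 0.67 (adjusted p = 0.00157), and for Hagh, a glyoxalase that releases glutathione, by 0.60 (adjusted p = 0.0178). The difference was negative for Gpx1, a glutathione peroxidase, at -0.71 (adjusted p = 0.00539), and for Ephx1 at -0.58 (adjusted p = 0.019). It was also negative for Txnip, a thioredoxin inhibitor, at -0.53 (adjusted p = 0.00612), and for Glrx at -0.45 (adjusted p = 0.0394). For Glrx this was a smaller rise on IL-4, with group means going from 155.8 to 269.7 normalized CPM, against 162.3 to 383.9 on IL-13. The Ephx1 call was lost without replicate 1 or 2 of IL-4, replicate 1 of IL-4+IL-6 or replicate 2 of IL-6+IL-13 (adjusted p of 0.0513 to 0.062), the Hagh call without replicate 2 of IL-4 or of IL-6+IL-13 (0.0642 and 0.0564), and the Glrx call without any of 9 libraries (adjusted p up to 0.0934), among them all 3 of IL-4.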

How the results depend on the processing

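Of 1426 alternative values of the members' called changes, 1367 kept direction and call and 59 kept direction but lost the call, and none reversed. Of 644 values of changes that were not called, 613 stayed so, 7 passed the test and 24 reversed. The test against a fold change of 1.2 took out small effects by construction: members called higher went from 1 to 0 for IL-4 and for IL-13 over control and for IL-4 over IL-13, and members called lower went from 10 to 5 for IL-6+IL-13 over IL-13, from 9 to 6 with IL-6 on IL-4, from 7 to 5 for IL-13 over control, from 10 to 9 for IL-6+IL-13 over control, from 2 to 1 for IL-4 over IL-13 and from 4 to 1 for IL-4+IL-6 over IL-6+IL-13. Members lower in IL-6+IL-13 over IL-13 were 9 with DESeq2 (Nqo1 lost) and 8 in a fit of the compared groups alone (Nqo1 and Srxn1 lost), which also took IL-4+IL-6 over IL-6+IL-13 from 4 to 3 (Gclm lost). DESeq2 called 1 member (Mgst1) higher in IL-4+IL-6 over IL-6+IL-13, where the main test called 0 (edgeR, with 2 higher at an unadjusted p under 0.05, Mgst1 and Gclc). Without the filter on low counts, members called lower went from 7 to 5 for IL-13 over control, from 10 to 7 for IL-6+IL-13 over IL-13, from 10 to 9 for IL-6+IL-13 over control and from 4 to 3 for IL-4+IL-6 over IL-6+IL-13. Leaving out single libraries gave 7 to 10 members lower in IL-6+IL-13 over IL-13, 0 to 1 members higher in IL-13 over control, 0 to 1 higher and 1 to 3 lower in IL-4 over IL-13, and 0 to 1 higher in IL-4+IL-6 over IL-6+IL-13. The causes were not tested.

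The reversed values were all close to 0. The stricter filter gave Prdx1 -0.0085 for IL-4 over control and Gclc -7.584e-05 for IL-4 over IL-13, and no filter gave Prdx1 0.034 for IL-13 over control. Over the 15 libraries left out in turn, Prdx1 ran from -0.046 to 0.10 for IL-4 over control, from -0.12 to 0.069 for IL-13 over control and from -0.036 to 0.16 for IL-4 over IL-13. Gclc ran from -0.13 to 0.035 for IL-4+IL-6 over control and from -0.066 to 0.072 for IL-4 over IL-13. Slc7a11 ran from -0.0796 to 0.32 for IL-4+IL-6 over IL-6+IL-13 and from -0.56 to 0.0074 for the difference between the IL-6 effects.

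The replicate numbers did not pair the libraries: over 30 same-number pairs the correlation of deviations from group means ran from -0.28 to 0.16, 3 pairs exceeded 0.1, and 2 of 15 libraries correlated best with their own number. With the number as a block, 9 members were lower in IL-6+IL-13 over IL-13, against 10 without it, and Nqo1 was the one lost (log2 -0.62, adjusted p = 0.0522). It changed no other member's call.

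Counts over all tested genes moved by over 1.5 times with the test against a fold change of 1.2: genes higher with IL-6 on IL-4 went from 2885 to 1469, higher and lower with IL-6 on IL-13 from 1684 and 1879 to 851 and 1079, in IL-4 over IL-13 from 719 and 1060 to 290 and 357, in IL-4+IL-6 over IL-6+IL-13 from 2207 and 2161 to 862 and 1190, and for the difference between the IL-6 effects from 449 and 616 to 202 and 328. A fit of the compared groups alone gave 1326 higher in IL-4+IL-6 over IL-6+IL-13, and no filter gave 1153 higher in IL-4 over IL-13. Single libraries moved IL-4 over IL-13 between 444 and 1292 higher and between 644 and 1623 lower, and the higher count of the difference between the IL-6 effects between 293 and 607. Pathway genes called higher fell under the test against a fold change of 1.2 from 20 to 13 in IL-13 over control, from 24 to 11 with IL-6 on IL-4 and from 12 to 6 with IL-6 on IL-13, where 22 lower went to 13. Without replicate 1 of IL-6+IL-13, 7 were higher with IL-6 on IL-13. The 2 pathway genes higher and 4 lower by the difference between the IL-6 effects were 1 and 1 under it, 4 higher with either other filter, 6 higher by DESeq2, and 1 to 4 higher and 2 to 7 lower without single libraries.

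With 3 libraries a group, few reads for Nqo1 and Slc7a11, and 2 libraries that stood apart leave the small differences the least certain.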
